A study of Mus musculus with 7 samples.

Results

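Of 40 imprinted genes listed by name, 35 could be measured in cultured mouse myoblasts with and without Hmga2, on an array that covered 18193 genes. Imprinted genes are transcribed mainly from the copy inherited from a single parent, and they lie in clusters that share a control region methylated in either the egg or the sperm. Many of them act on growth, placental function and metabolism, and several are strongly expressed in embryonic tissues and in muscle precursor cells. Hmga2 encodes a chromatin architecture protein with AT-hooks, which contact AT-rich DNA, and is itself high in embryonic and precursor cells. The list was chosen by name with the differences between the genotypes already in view, those of Zdbf2 and the Meg3 cluster among them. The differences between genotypes given here are therefore descriptions of the members, and no test of that contrast is used as support. In brief, Zdbf2 had lower intensities in every Hmga2 KO sample, the noncoding RNAs Meg3, Rian and Mirg had higher means, the brightest Grb10 probe set was lowest in the female Hmga2 KO samples, and Slc38a4 was highest in the male ones.

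Myoblasts, the precursors of muscle fibres, came from C57BL/6 mice that were either wild type (3 samples, all female) or homozygous for loss of Hmga2, called Hmga2 KO (4 samples). Among the Hmga2 KO samples, replicates 1 and 3 came from males and replicates 2 and 4 from females. No male wild type sample was included, and no treatment was given. The kind of null allele, the age of the mice and the number of mice per sample are not stated in the sources at hand. Samples were labelled as biological replicates, and each was hybridised to its own Affymetrix array, on which a probe set is a group of short probes for a transcript.

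The deposited values were linear intensities scaled so that the median of each array was 150. Hmga2 itself had a mean intensity of 11599 ± 1443 (SD, n = 3) in the wild type group, against 95.8 ± 7.70 (SD, n = 4) without the gene. Array background was read from the 9 probe sets of Y-linked genes in the 5 female samples, which lay between 33.9 and 58.2, and all 35 measured members had a mean above 58.2 in at least 1 genotype. The median difference over all genes, Hmga2 KO minus wild type, was -0.07 on the scale of log2(intensity + 1) used for every difference here. The 6 myoblast markers were all above background, with a summed intensity of 48610.1 to 52768 in wild type and 41315 to 53582 in Hmga2 KO samples. All 10 markers of sarcomeres and terminal differentiation were lower on average in Hmga2 KO samples (summed intensity 24844 to 57255) than in wild type (51433 to 71659). Their wild type means ran from 161 for Ckm to 16416 for Mylpf, which had a mean of 12221 in Hmga2 KO samples. The cultures of both genotypes thus held transcripts of terminal differentiation. Summed fibroblast markers ranged from 10356 to 10801 in wild type and from 10762 to 12785 in Hmga2 KO samples, and 7 of the 8 had a higher mean in Hmga2 KO samples, with a median difference of 0.22. The widest of these differences was that of Smoc2, with means of 95.9 ± 7.26 (SD, n = 3) against 335 ± 146 (SD, n = 4) and no overlap, and Islr had means of 1019 and 1785. Dcn, Lum and Dpt were near background, with means of 58.6, 54.1 and 47.5 against 73.6, 55.4 and 48.5. Other fibroblast markers were well above it. Col3a1 had means of 7683 and 8314, and Col1a1, the 1 marker with a lower mean in Hmga2 KO samples, 1392 and 1093. Pdgfra had means of 217 and 301, with 383 in wild type replicate 1 and 620 in Hmga2 KO replicate 1. The part of these markers in the values of the imprinted genes was not tested. The endothelial and leukocyte marker sums did not pass 325 and 369 in any sample. Wild type replicate 2 stood apart with a 3′ to 5′ signal ratio of 1.94 for Actb, against 1.61 to 1.74 in the other samples, and of 1.52 for Gapdh, against 1.22 to 1.36. In these whole cultures, a smaller share of cells that express a gene and less RNA per cell cannot be told apart.

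The members came from 18 imprinted domains, of which 17 held a measured member. Rtl1, Dio3, Begain and Slc22a3 had no probe set assigned to a single gene, and H19 was represented only by a probe set shared with a microRNA gene, so these 5 were not analysed here. Where a gene had several probe sets, the brightest stands for it.

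The DNA just upstream of the transcription start is shown for 7 members, picked after their values were seen, because imprinted promoters are often rich in the CpG dinucleotides at which parental methylation is placed. The windows hold 250 bases before a RefSeq start in GRCm38.p6, written 5′ to 3′ on the gene's own strand, with each CG in capitals. Zdbf2 has a distal start (chr1:63200108-63200357, plus strand) and a second start further downstream (chr1:63273019-63273268, plus strand). The other windows are those of Meg3 (chr12:109540746-109540995, plus strand), Mirg (chr12:109734731-109734980, plus strand), Nnat (chr2:157559828-157560077, plus strand), Plagl1 (chr10:13090582-13090831, plus strand), Grb10 (chr11:12037421-12037670, minus strand) and Slc38a4 (chr15:97055957-97056206, minus strand).
Zdbf2, distal start: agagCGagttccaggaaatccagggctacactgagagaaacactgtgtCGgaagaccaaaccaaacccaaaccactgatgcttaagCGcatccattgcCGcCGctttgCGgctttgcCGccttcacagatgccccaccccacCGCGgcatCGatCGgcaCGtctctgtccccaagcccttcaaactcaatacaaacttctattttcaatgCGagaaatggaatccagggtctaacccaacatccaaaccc
Zdbf2, second start: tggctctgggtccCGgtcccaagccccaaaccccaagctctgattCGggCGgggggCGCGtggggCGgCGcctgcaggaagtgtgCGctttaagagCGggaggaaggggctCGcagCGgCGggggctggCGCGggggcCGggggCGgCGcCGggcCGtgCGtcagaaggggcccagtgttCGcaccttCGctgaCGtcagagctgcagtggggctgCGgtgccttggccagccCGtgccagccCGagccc
Meg3: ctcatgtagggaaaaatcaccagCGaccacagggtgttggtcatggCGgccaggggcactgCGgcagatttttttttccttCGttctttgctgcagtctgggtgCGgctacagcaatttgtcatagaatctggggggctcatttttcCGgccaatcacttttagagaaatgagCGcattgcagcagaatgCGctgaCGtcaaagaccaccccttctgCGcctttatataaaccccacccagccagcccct
Mirg: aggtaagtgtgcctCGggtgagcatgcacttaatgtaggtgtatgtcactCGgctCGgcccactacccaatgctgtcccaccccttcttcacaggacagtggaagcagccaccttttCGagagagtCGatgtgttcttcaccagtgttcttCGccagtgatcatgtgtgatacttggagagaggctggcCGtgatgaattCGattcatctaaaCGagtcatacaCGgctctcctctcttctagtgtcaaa
Nnat: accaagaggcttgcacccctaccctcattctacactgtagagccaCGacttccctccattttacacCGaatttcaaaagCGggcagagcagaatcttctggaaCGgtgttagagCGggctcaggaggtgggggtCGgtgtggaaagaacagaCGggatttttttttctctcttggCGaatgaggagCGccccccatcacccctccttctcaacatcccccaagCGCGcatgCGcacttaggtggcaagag
Plagl1: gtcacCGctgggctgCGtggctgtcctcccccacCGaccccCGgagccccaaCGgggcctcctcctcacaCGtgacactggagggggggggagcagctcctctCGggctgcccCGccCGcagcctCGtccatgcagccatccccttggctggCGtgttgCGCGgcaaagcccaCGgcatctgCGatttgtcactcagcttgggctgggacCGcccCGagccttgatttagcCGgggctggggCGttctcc
Grb10: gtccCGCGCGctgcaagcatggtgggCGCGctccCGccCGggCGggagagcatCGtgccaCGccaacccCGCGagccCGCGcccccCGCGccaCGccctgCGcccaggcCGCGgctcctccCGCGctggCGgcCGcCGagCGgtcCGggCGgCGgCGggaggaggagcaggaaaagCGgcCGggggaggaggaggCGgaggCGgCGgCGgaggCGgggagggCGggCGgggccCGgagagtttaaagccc
Slc38a4: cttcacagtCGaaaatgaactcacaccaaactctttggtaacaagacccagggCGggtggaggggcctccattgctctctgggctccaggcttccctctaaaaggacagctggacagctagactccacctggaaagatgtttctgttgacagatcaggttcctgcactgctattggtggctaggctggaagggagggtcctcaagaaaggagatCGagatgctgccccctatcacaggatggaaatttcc

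The printed windows differed widely in CG count. The Grb10 window held 40 CG, the second Zdbf2 window 26, the Plagl1 window 19 and the distal Zdbf2 window 13, whereas the Slc38a4 window held 3. Across the 48 windows of the 32 measured members found in the RefSeq table, the median ratio of observed to expected CpG was 0.608, against 0.373 over all 32851 windows. The hexamer TGCCGC, which the imprint-maintaining protein ZFP57 binds when methylated, was present on either strand in 8 member windows (16.7%) and in 8.68% of all windows. Among these 8, a pair of Mest windows overlap almost fully and share their matches. The hexamer itself holds a CG, and the median CG count was 10 in member windows against 6 in all windows. TGCCGC occurred 3 times in the distal Zdbf2 window and 1 time each in the Meg3 and Plagl1 windows. The AT-rich pentamer ATATT was present on either strand in 9 member windows (18.8%) and in 23.3% of all windows. These are matches of letters and not sites of binding.

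Zdbf2, which encodes a protein with a DBF4-type zinc finger and is expressed from the paternal allele, was the member with the lowest Hmga2 KO values relative to wild type. Its intensity was 1745, 1938 and 1701 in wild type replicates 1 to 3 and 715, 536, 718 and 547 in Hmga2 KO replicates 1 to 4. All 4 Hmga2 KO samples lay below all 3 wild type samples, with means of 629 ± 101 (SD, n = 4) and 1795 ± 126 (SD, n = 3). The difference was -1.52 (SE 0.134), a 2.87-fold lower level in Hmga2 KO samples. It was -1.72 for the female and -1.32 for the male Hmga2 KO samples against the female wild type. Zdbf2 was represented by 1 probe set. The linear model limma with Benjamini-Hochberg adjustment over all genes called 1 of the 35 members at an adjusted p under 0.05, namely Zdbf2, beside 0.0275% of all genes. Zdbf2 was listed with this difference in view, so the call describes the gene and is not used as support. The call also depended on single wild type samples. Without wild type replicate 1 or without wild type replicate 3 no member was called, with adjusted p of 0.060 and 0.078 for Zdbf2 from limma, although its difference was then -1.54 and -1.56.

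The maternally expressed noncoding RNAs of the Dlk1-Meg3 domain had higher mean intensities in Hmga2 KO samples. Meg3, a long noncoding RNA at the start of this maternal transcription unit, had intensities of 1218, 3072 and 1274 in wild type and 2458, 5301, 3909 and 3191 in Hmga2 KO replicates 1 to 4. The groups overlapped because wild type replicate 2 lay above Hmga2 KO replicate 1. The difference was 1.08 (SE 0.350), and 1.52 without wild type replicate 2. The 7 Meg3 probe sets with a mean intensity over 100 across all samples differed by 0.91 to 1.45. For 1 of these the wild type mean was 89.0 and the Hmga2 KO mean 163, so it reached that level only through the Hmga2 KO samples. The other 4 were dim and differed by -0.10 to -0.0027.

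Rian, a host of small nucleolar RNAs, had intensities of 6530.1, 6720.2 and 4751 in wild type and 8310.0, 9703, 9565 and 8071 in Hmga2 KO samples. The groups did not overlap, and the difference was 0.58 (SE 0.141). All 4 Rian probe sets separated the genotypes in the same direction, with differences of 0.58 to 1.41, the brightest giving the smallest. Mirg, a host of microRNAs, had intensities of 139, 288 and 112 in wild type and 264, 500.4, 344 and 255 in Hmga2 KO samples. Its difference was 0.99 (SE 0.333) with groups that overlapped through wild type replicate 2. It was 1.39 without that sample and 0.71 without wild type replicate 3. The second Mirg probe set did not overlap, with 157, 191 and 193 in wild type and 232, 279.9, 249.9 and 232 in Hmga2 KO samples, a difference of 0.46.

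Sample differences within each genotype recurred across this unit. Over the 13 probe sets of Meg3, Rian and Mirg with a mean intensity over 100 across all samples, the highest sample was Hmga2 KO replicate 2 in 11 and Hmga2 KO replicate 3 in 2. The lowest was wild type replicate 3 in 10 and wild type replicate 1 in 3. Wild type replicate 2, the sample with the highest Actb ratio, also had the highest sum of sarcomere markers (71659). Hmga2 KO replicate 2 likewise had the highest Actb ratio (1.74) and sarcomere sum (57255) of its genotype. The lowest sarcomere sum in wild type was that of replicate 1 (51433) and not of replicate 3. The part of the Actb ratio or of the sarcomere markers in the Meg3 values was not tested. Dlk1, the paternally expressed transmembrane protein of the same domain, had intensities of 384, 558 and 461 in wild type and 442, 579, 485 and 475 in Hmga2 KO samples. The groups overlapped and the difference was 0.09 (SE 0.144). A second, dimmer Dlk1 probe set gave 153, 207 and 86.0 in wild type and 152, 209, 204 and 257 in Hmga2 KO samples, a difference of 0.53 with overlapping groups.

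**Figure D1:**
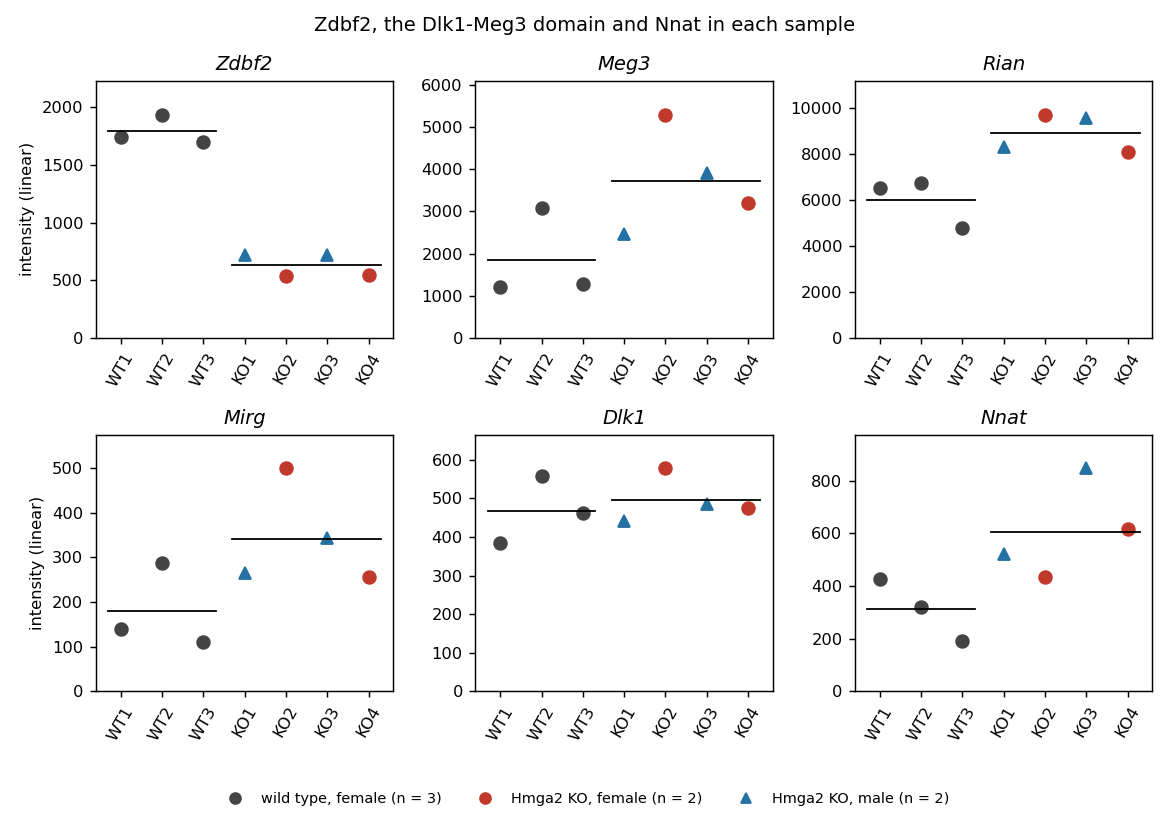
Linear intensity (y axis) of Zdbf2, Meg3, Rian, Mirg, Dlk1 and Nnat in each of the 7 samples (x axis), with a point per sample, circles for females, triangles for males and a horizontal line at each genotype's mean. Zdbf2, Rian and Nnat do not overlap between genotypes, whereas Meg3 and Mirg overlap through wild type replicate 2, and Dlk1 overlaps throughout.

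**Figure D2:**
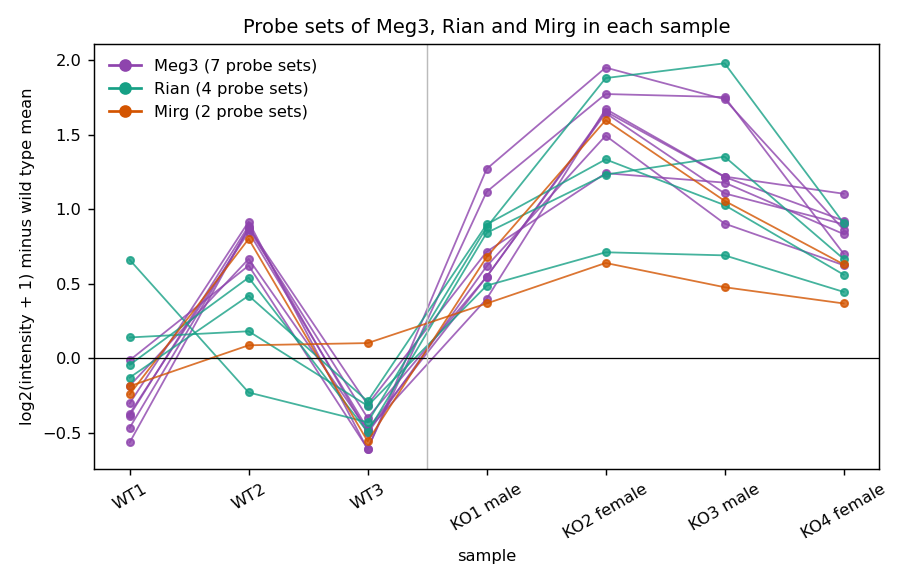
Value of each of the 13 probe sets of Meg3, Rian and Mirg with a mean intensity over 100 across all samples, as log2(intensity + 1) minus the wild type mean of that probe set (y axis), in each sample (x axis); a line joins the values of a probe set. Hmga2 KO replicate 2 is the highest sample for 11 of the 13. The Meg3 probe set with a wild type mean of 89.0 passed 100 only through the Hmga2 KO samples.

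Outside these domains, 3 members separated the genotypes completely. Nnat, a paternally expressed membrane proteolipid, had intensities of 425, 322 and 190.4 in wild type and 521, 433, 848 and 616 in Hmga2 KO samples. All Hmga2 KO samples were higher, the nearest pair being 425 and 433, and the difference was 0.98 (SE 0.289). Blcap, the gene that hosts Nnat in an intron, had intensities of 4263, 3727 and 3682 in wild type and 5937, 3959, 4909 and 4842 in Hmga2 KO samples. Its groups overlapped through Hmga2 KO replicate 2, and its difference was 0.32 (SE 0.138).

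Plagl1, a paternally expressed zinc finger transcription factor, had intensities of 17127, 16551 and 16989 in wild type and 18588, 20972, 19947 and 19359.8 in Hmga2 KO samples. All Hmga2 KO samples were higher, with a difference of 0.22 (SE 0.086). The 2 other Plagl1 probe sets were dimmer and differed by 0.82, without overlap, and by 0.89, with overlap. Sgce, the paternally expressed epsilon sarcoglycan of the muscle cell membrane, had intensities of 1002, 1081 and 1178 in wild type and 787, 927, 945 and 844 in Hmga2 KO samples. All Hmga2 KO samples were lower, with a difference of -0.31 (SE 0.105).

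In total 5 of the 35 members (14.3%) did not overlap between genotypes, beside 11.7% of all genes. Those with higher Hmga2 KO values were Rian, Plagl1 and Nnat, and 2.37% of all genes did the same. Those with lower values were Zdbf2 and Sgce, and 9.29% of all genes did the same. Of the 35 members, 18 had a higher and 17 a lower mean in Hmga2 KO samples, and their median difference was 0.0082 against -0.071 over all genes. Over all 18193 genes, 5901 had a higher and 12292 a lower mean.

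By the parental allele usually expressed, 9 of 19 measured paternal members were higher in Hmga2 KO samples and 10 lower (median -0.0055). Among the 10 maternal members, 7 were higher and 3 lower (median 0.035). Among the 6 members with mixed or tissue-dependent imprinting, 2 were higher and 4 lower (median -0.12). Members on each allele thus lay on both sides of 0. The arrays do not separate the parental alleles, so these values say nothing of which allele was transcribed.

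**Figure D3:**
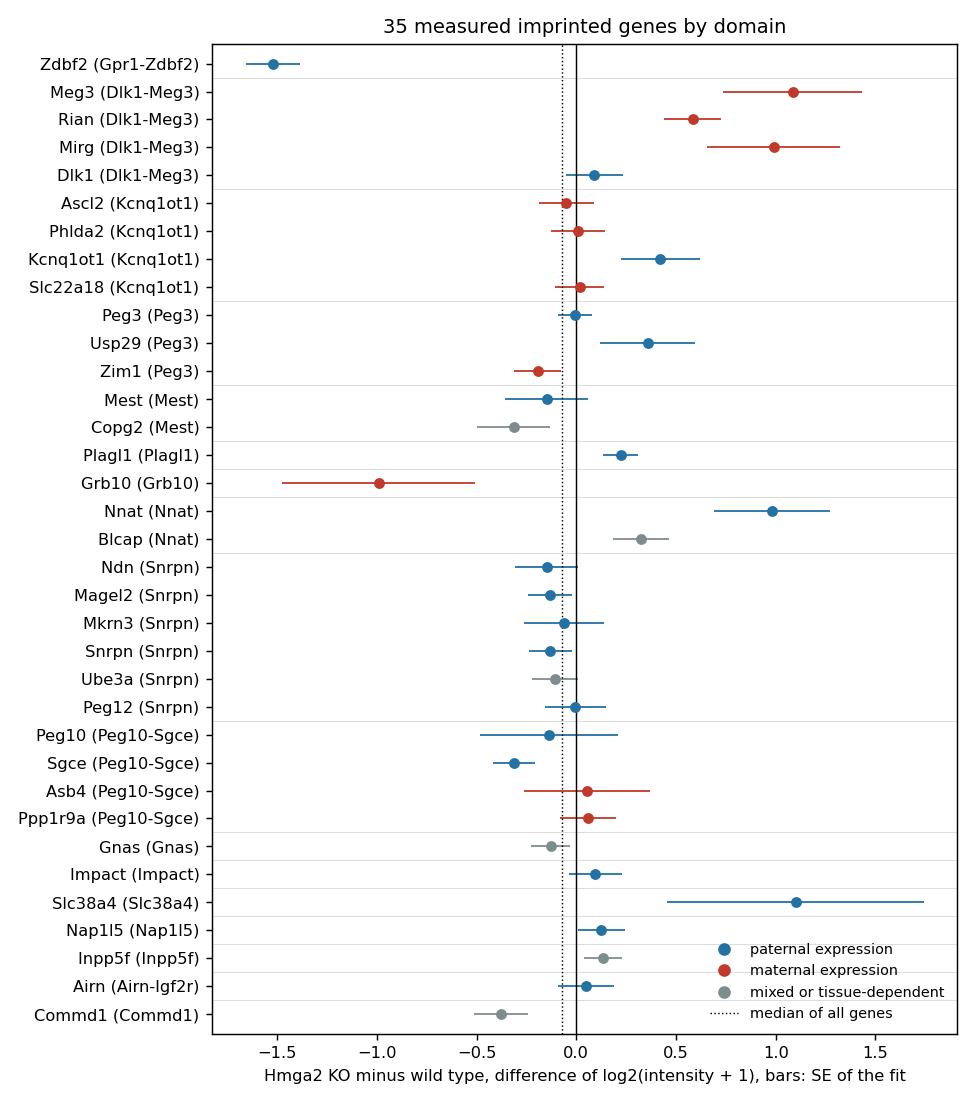
Difference of log2(intensity + 1), Hmga2 KO (n = 4) minus wild type (n = 3), on the x axis for the 35 measured members (y axis, grouped by domain), with bars for the SE of the fit, colours for the parental allele usually expressed and a dotted line at the median of all genes. Zdbf2 is lowest at -1.52, and Meg3, Mirg, Nnat and Slc38a4 lie between 0.98 and 1.10, although some Slc38a4 samples lie at background.

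Grb10 encodes an adaptor that inhibits insulin and IGF receptor signalling, and it is expressed from the maternal allele in most tissues outside the brain. Its intensity was 8198, 9086 and 7234 in wild type and 7279, 1532, 7259 and 3471 in Hmga2 KO replicates 1 to 4. The male Hmga2 KO samples lay within the wild type range, and the female ones lay below every other sample. The difference between genotypes was -0.99 (SE 0.483), made up of -1.82 for female and -0.16 for male Hmga2 KO samples. The other 2 Grb10 probe sets were less bright and differed less. The dimmest read 78.4, 91.4 and 76.7 in wild type and 63.4, 61.1, 73.2 and 54.7 in Hmga2 KO samples, a difference of -0.38 in which all Hmga2 KO samples, male ones included, lay below wild type. The other read 175, 169.6 and 198 in wild type and 182, 145, 167 and 162 in Hmga2 KO samples, a difference of -0.14 with overlapping groups.

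Slc38a4, a paternally expressed transporter of amino acids, was instead higher in the male Hmga2 KO samples. Its intensity was 81.2, 51.6 and 46.8 in wild type and 339, 45.9, 245 and 64.6 in Hmga2 KO samples. The male Hmga2 KO samples were above all others, and the female ones lay at the level of wild type, close to background. The fitted difference between genotypes was 1.10 (SE 0.642), and 2.29 for the male Hmga2 KO samples against wild type. Since 2 wild type samples and 1 female Hmga2 KO sample lay under 58.2, the male Hmga2 KO level is better given as at least 4.38-fold that of wild type, with samples under 58.2 set to that value. A second Slc38a4 probe set had both genotype means under 58.2. It read 51.9, 42.2 and 49.9 in wild type and 68.5, 46.0, 50.9 and 46.1 in Hmga2 KO replicates 1 to 4. Its male minus female difference was 0.35, and male replicate 3 lay within the wild type range.

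Male and female Hmga2 KO samples, with 2 samples each, were compared in a limma fit over all genes that shared its spread with wild type. The choice of members did not use this contrast, although results of these data were known. After Benjamini-Hochberg adjustment 0 of the 35 members passed 0.05, beside 0.0385% of all genes (7 of 18193). At an unadjusted limma p under 0.05, 5 of 35 members (14.3%) passed, beside 6.30% of all genes. The markers of sarcomeres and terminal differentiation also differed in this contrast, with 7 of 10 at an unadjusted limma p under 0.05 and a median difference, male minus female, of -0.67, against -0.041 over all genes. Their summed intensity was 24844 and 39215 in the male and 57255 and 43169.7 in the female Hmga2 KO samples. Their part in the sex differences of the imprinted genes was not tested. Slc38a4 differed by 2.38 as fitted, male minus female (SE 0.286, limma adjusted p = 0.059). With the female sample under background set to 58.2, its level was at least 4.64-fold higher in males. It passed the threshold with a trended and robust prior (limma adjusted p = 0.030) and with array weights (limma adjusted p = 0.036). Grb10 was 3.15-fold higher in males, a difference of 1.66 (SE 0.321, limma adjusted p = 0.302). The Grb10 difference was 2.25 without Hmga2 KO replicate 4 (limma adjusted p = 0.012) and 1.07 without Hmga2 KO replicate 2.

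The other 3 members with an unadjusted p under 0.05 differed less between the sexes. Zdbf2 differed by 0.40 (SE 0.123, limma adjusted p = 0.581), with both male values above both female values. Ppp1r9a, neurabin 1, differed by -0.41 (SE 0.132, limma adjusted p = 0.610). Its intensities were 528, 484 and 492 in wild type and 416, 605, 494 and 599 in Hmga2 KO samples, with a genotype difference of 0.06 (SE 0.140). Ndn, a MAGE family protein, differed by -0.43 (SE 0.159, limma adjusted p = 0.676). With all wild type samples female, a sex difference in wild type could not be measured, nor whether it differs between genotypes.

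**Figure D4:**
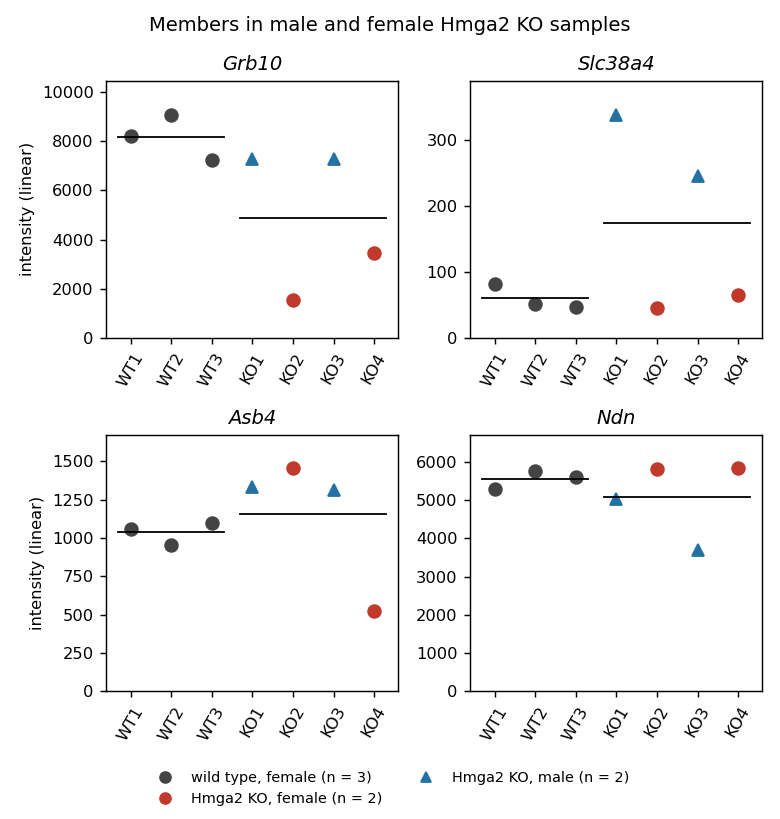
Linear intensity (y axis) of Grb10, Slc38a4, Asb4 and Ndn in each sample (x axis), with a point per sample, circles for females, triangles for males and a horizontal line at each genotype's mean. For Grb10 the female Hmga2 KO samples (1532 and 3471) lie lowest, and for Slc38a4 the male ones (339 and 245) lie highest.

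Members of the Snrpn domain, where deletions of the paternal copy underlie Prader-Willi syndrome in humans, differed little between genotypes. All 6 measured members had a lower mean in Hmga2 KO samples, with a median difference of -0.12 against -0.07 over all genes, and all 6 overlapped. A lower mean was also found for 12292 of all 18193 genes. Ndn had intensities of 5307, 5772 and 5607 in wild type and 5033, 5807, 3702 and 5842 in Hmga2 KO samples, a difference of -0.15 (SE 0.159) with Hmga2 KO replicate 3 lowest. Magel2, a MAGE protein that works with ubiquitin ligases, had 453, 399.8 and 431 in wild type and 349, 450.3, 399.8 and 367 in Hmga2 KO samples, a difference of -0.13. Mkrn3, a ring finger protein, had 276, 366 and 255 in wild type and 252, 405, 266 and 237 in Hmga2 KO samples, a difference of -0.06. For both, replicate 2 of the Hmga2 KO samples was the highest of its genotype.

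Snrpn, a protein of the splicing machinery, had 152, 138 and 154 in wild type and 119.6, 155, 134 and 134 in Hmga2 KO samples, a difference of -0.13. The 6 probe sets it shares with Snurf were left out. Ube3a, a ubiquitin ligase imprinted in neurons, had 5082, 6089 and 6218 in wild type and 5009, 6056, 4918 and 5508 in Hmga2 KO samples, a difference of -0.11. Peg12, a Frat family member, had 2597, 1638 and 2219 in wild type and 2333, 2111, 1958 and 2032 in Hmga2 KO samples, a difference of -0.0064. For Peg12 the whole range was set by the wild type samples.

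In the Peg3 domain, Peg3 itself, a zinc finger protein abundant in muscle precursors, was nearly level between genotypes on its brightest probe set. Its intensity was 16931, 16267 and 17231 in wild type and 16417, 16844, 15909.9 and 17852 in Hmga2 KO samples, a difference of -0.0055 (SE 0.086). The next brightest Peg3 probe sets differed by 0.13 and 0.27, and a dimmer one over 100 by 0.06, all with overlapping groups. Usp29, a ubiquitin-specific protease, had 1885, 833 and 1376 in wild type and 1469, 1561, 1839 and 1785 in Hmga2 KO samples. Its difference of 0.36 (SE 0.238) was 0.04 without wild type replicate 2, the lowest sample. Zim1, a maternally expressed zinc finger gene, had 351, 429 and 385 in wild type and 295, 389, 333 and 344 in Hmga2 KO samples, a difference of -0.19 (SE 0.119) with overlapping groups.

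In the Mest domain, Mest, a paternally expressed hydrolase of mesodermal tissues, had intensities of 12747, 8439.7 and 14864 in wild type and 8561, 12537, 9543 and 12095 in Hmga2 KO samples. The groups overlapped, and the difference of -0.15 (SE 0.208) was -0.38 without wild type replicate 2. For the female Hmga2 KO samples against wild type it was 0.07. Copg2, a subunit of the coatomer that coats transport vesicles, had 1189, 1514 and 1710.0 in wild type and 922, 1526, 1110.2 and 1198 in Hmga2 KO samples. Its difference was -0.31 (SE 0.182), with Hmga2 KO replicates 1 and 3, the male samples, below every other.

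Among the other members of the Peg10-Sgce domain, Peg10, a retrotransposon-derived protein, varied most within wild type. Its intensity was 3542, 1334 and 2826 in wild type and 1592, 2075, 3419.8 and 1925 in Hmga2 KO samples. The difference was -0.14 (SE 0.346), and -0.55 without wild type replicate 2. Over the alternative fits listed below it reached 0.15, and it was above 0 without wild type replicate 1 and without Hmga2 KO replicate 1. Asb4, a maternally expressed ankyrin repeat protein, had 1062, 957 and 1096 in wild type and 1332, 1456, 1316 and 525 in Hmga2 KO samples. Of its Hmga2 KO samples 3 lay above and 1, replicate 4, lay below all wild type samples, and the difference was 0.05 (SE 0.318). The second Asb4 probe set read 598 in Hmga2 KO replicate 4, again its lowest sample.

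Wild type replicate 2 was not low for imprinted genes as a class. Among the 3 wild type samples it was the lowest for 12 of the 35 members and the highest for 12.

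Members of the Kcnq1ot1 domain include a long antisense RNA from the paternal allele and the maternally expressed genes that it silences. Kcnq1ot1 had intensities of 299, 391 and 231 in wild type and 453, 328, 359.6 and 491 in Hmga2 KO samples, a difference of 0.42 (SE 0.198) with overlapping groups. Another pair of Kcnq1ot1 probe sets over 100 overlapped and differed by 0.08 and 0.22. A dimmer probe set, at 72.6, 77.4 and 58.9 in wild type and 104, 78.6, 78.9 and 87.9 in Hmga2 KO samples, did not overlap and differed by 0.32. The maternal targets of Kcnq1ot1 among the members were low on these arrays. Phlda2, a growth-restraining pleckstrin homology protein, had 141, 120.3 and 171 in wild type and 162, 141, 143 and 129 in Hmga2 KO samples, a difference of 0.0082. Slc22a18, a solute carrier, had 86.4, 87.7 and 117 in wild type and 91.1, 98.0, 97.1 and 104 in Hmga2 KO samples, a difference of 0.017. Ascl2, a transcription factor of trophoblast and stem cells, had 58.9, 79.5 and 86.6 in wild type and 67.2, 77.3, 67.2 and 74.9 in Hmga2 KO samples, a difference of -0.05. In all of these targets the Hmga2 KO values lay inside the wild type range.

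The remaining members are single representatives of their domains. Commd1, a protein of copper handling and endosomal sorting, had intensities of 2509.5, 3060.2 and 3201 in wild type and 1944, 2697, 2135 and 2228 in Hmga2 KO samples. Its difference was -0.38 (SE 0.136), with overlap through Hmga2 KO replicate 2. Gnas, the stimulatory G protein subunit, had 8673, 9207 and 9666 in wild type and 8350.4, 9343, 8065 and 7882 in Hmga2 KO samples, a difference of -0.13 (SE 0.097) with overlap. A second, dimmer Gnas probe set did not overlap, with 288, 408 and 333 in wild type and 168, 263, 227 and 273 in Hmga2 KO samples, a difference of -0.57, and another pair of Gnas probe sets over 100 overlapped and differed by 0.26 and 0.24. Inpp5f, a phosphoinositide phosphatase, had 3251, 3268 and 3017 in wild type and 3362, 3268, 3445 and 3906 in Hmga2 KO samples, a difference of 0.13 (SE 0.096) with overlap.

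Impact, a regulator of the kinase Gcn2, had intensities of 4567, 3705 and 3998 in wild type and 3540.3, 4914, 4616 and 4480.0 in Hmga2 KO samples, a difference of 0.10 (SE 0.133). Airn, the antisense RNA that silences Igf2r, had 579, 658 and 456 in wild type and 499, 615, 586 and 617 in Hmga2 KO samples, a difference of 0.05 (SE 0.140). Nap1l5, of the nucleosome assembly protein family, ranged from 59.7 to 79.5 over all samples, just above background, with a difference of 0.13 (SE 0.118). All 3 overlapped between genotypes.

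Other genes subject to imprinting or lying in the same domains were examined from a further list of 34, of which 29 were matched by symbol. Wars1 was measured under the symbol Wars, was not matched and is not among the 29. Of the 29, 10 had a higher and 19 a lower mean in Hmga2 KO samples, with a median difference of -0.07, the same as over all genes to 2 decimals. In limma 0 of the 29 passed an adjusted p of 0.05 and 2 had an unadjusted p under 0.05, beside 13.3% of all genes. The largest differences above background were those of Ddc, aromatic amino acid decarboxylase, Cobl, an actin nucleator, and Adam23, a cell adhesion protein. Ddc, which lies near Grb10, had mean intensities of 1294 ± 278 (SD, n = 3) in wild type, against 679 ± 194 (SD, n = 4) in Hmga2 KO samples, a difference of -0.96 (limma adjusted p = 0.245). Cobl, on the other side of Grb10 from Ddc, had means of 1229.9 and 739 and differed by -0.79 (limma adjusted p = 0.381). Against wild type, Ddc differed by -0.66 for female and -1.25 for male Hmga2 KO samples. The same values were -0.36 and -1.23 for Cobl, whereas they were -1.82 and -0.16 for Grb10. Adam23, a neighbour of Zdbf2, differed by 0.54 (limma adjusted p = 0.292), in the direction opposite to Zdbf2. Gpr1, the gene next to Zdbf2, had means of 62.0 and 63.6, close to background. The growth factor Igf2 had means of 10081 ± 1865 (SD, n = 3) in wild type, against 8976 ± 2563 (SD, n = 4) in Hmga2 KO samples, a difference of -0.20.

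Genes that protect or erase imprints were taken from a list of 20, of which 19 were measured. Of these, 6 had a higher and 13 a lower mean in Hmga2 KO samples, with a median difference of -0.02. In limma 0 of the 19 passed an adjusted p of 0.05, and 1 had an unadjusted p under 0.05, beside the same 13.3% of all genes. The largest differences were -0.28 for Trim28, the corepressor recruited by ZFP57 (limma adjusted p = 0.357), 0.20 for Tet1, an enzyme that oxidises methylcytosine (limma adjusted p = 0.596), and -0.17 for Ehmt2, a histone H3 lysine methyltransferase (limma adjusted p = 0.608).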

How the data were processed

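The authors deposited linear intensities per probe set, which have a median of 150 on every array; how they were summarised is not stated in the sources at hand. The table held 45101 probe sets, of which 34945 were paired by the platform annotation with a single gene, 932 with several genes and 9160 with none, and 64 were controls; 34741 were matched to RefSeq (GRCm38.p6) by gene identifier. For each of 18193 genes the brightest probe set over all 7 samples was used, and log2(intensity + 1) was fitted with limma 3.58.1 in R 4.3.3 (lmFit and eBayes, Benjamini-Hochberg over all genes, threshold 0.05); promoter windows were searched in python 3.11.15 with pandas 2.3.3. The fits were tested on simulated data. Wild type and Hmga2 KO formed the groups, and a fit with 3 groups gave males against females within Hmga2 KO. P-values measure the spread between these samples, and the number of arrays limits the precision.

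The members and lists were chosen with earlier results of these data known. All members above the Y-linked background of female samples were to be described, and from the other lists any gene called or otherwise the 3 with the largest difference. The alternatives tried were a block on the replicate number, a covariate for sex, the female samples only, quantile normalization, a filter on the dimmest 40% of genes, the mean of all probe sets, a pseudocount of 16, a trended and robust prior, array weights, and leaving out each sample.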

Additional observations from a re-analysis of the deposited data

Results flagged for a closer look

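Asb4 in Hmga2 KO replicate 4 stood far from the other Hmga2 KO samples. Its intensity there was 525, against 1316 to 1456 in the other 3. On the log2 scale the gap to the nearest of them was 0.901 of the range of the group, above the critical value of Dixon's test for 4 samples. Chance alone places about 1 in 20 such groups above that value, and 35 members were examined.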

How the results depend on the processing

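Between Hmga2 KO and wild type, 5 genes and 1 member, Zdbf2, passed the threshold. With the replicate block 99 genes and 3 members did (Zdbf2, Meg3 and Mirg). The deviations of same-numbered samples correlated at 0.31, 0.37 and -0.18. Wild type replicates 1 and 2 correlated best with the Hmga2 KO sample of their own number, and wild type replicate 3 with Hmga2 KO replicate 1. These values do not settle whether the samples were paired, and the numbers were not taken to pair them. Leaving out 1 sample at a time gave 2 to 17 genes and 0 to 1 members: 3 genes without wild type replicate 1, 2 without wild type replicate 3, and, of the Hmga2 KO samples, 17 without replicate 2 and 3 without replicate 3. Between male and female Hmga2 KO samples 7 genes and 0 members passed, and without the dimmest 40% of genes 3 genes passed. Leaving out 1 Hmga2 KO sample left a lone sample in an arm, which the fit assumes to vary like the other groups. Calls from those fits are not given. With the trended and robust prior, and with array weights, 1 member passed (Slc38a4). Over the alternatives of the genotype contrast (16 for 29 members, and 15 for Ascl2, Phlda2, Slc22a18, Snrpn, Slc38a4 and Nap1l5, which the filter on dim genes removed), 20 members kept the sign of their difference and 15 did not in at least 1. The difference of Zdbf2 ranged from -1.72 to -1.44, that of Meg3 from 0.70 to 1.52 and that of Grb10 from -1.82 to -0.50. Members near background (Nap1l5, Ascl2, Slc22a18) allow little to be seen, and the shared probe sets of H19 and Snrpn were not used.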

Other observations

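Genes surrounding 6 members, picked after their values were seen, were examined as a description of the wider loci, 5 measured genes on each side and no members among them. For comparison, 5901 of all 18193 genes had a higher and 12292 a lower mean in Hmga2 KO samples. Around Zdbf2, 5 of the 10 neighbours had a higher and 5 a lower mean in Hmga2 KO samples, with differences from -0.27 to 0.54, the highest being Adam23. Around Meg3, 1 was higher and 9 were lower, with differences from -0.19 to 0.17. Around Grb10, 2 were higher and 8 lower, with differences from -0.96, that of Ddc, to 0.15. Around Nnat, 1 was higher and 9 were lower, with differences from -0.29 to 0.24. Around Plagl1, 4 were higher and 6 lower, from -0.28 to 0.40, and around Slc38a4, 5 were higher and 5 lower, from -1.54 to 0.19. None of these neighbours passed the limma threshold (0 called at each locus).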
